A study of Mus musculus with 12 samples.

Results

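The 10 genes described here are the NRF2 regulators and targets Nfe2l2, Keap1, Bach1, Nqo1, Srxn1, Hmox1, Gclc, Gclm, Txnrd1 and Slc7a11, chosen by gene symbol out of 32699 genes in the deposited tables. All 10 were found, and all 10 were among the 8273 genes with more than 10 CPM, the count scaled for library depth, in at least 2 libraries. Poly(A) RNA was sequenced from G1E-ER4 cells, a mouse erythroid line, with 3 libraries for each of 4 groups. Ctrl cells had no treatment, TMG cells received 10 µM of the inhibitor Thiamet-G, E2 cells received β-estradiol at 1 µM, and TMG_E2 cells received both, in each case for 30 h. Every group carries a fusion of the erythroid regulator GATA-1 with the estrogen receptor, kept under puromycin selection, and grew with erythropoietin and stem cell factor. E2 activates that fusion and starts erythroid maturation. TMG blocks OGA, the enzyme that removes the sugar O-GlcNAc from proteins. The study asked whether disturbing O-GlcNAc turnover altered the erythroid gene program. No vehicle is named for the untreated cells, all groups are 1 cell line, and no E2-treated group lacked the fusion, so effects of E2 through the fusion and outside it cannot be told apart.

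NRF2, encoded by Nfe2l2, is a transcription factor of the cap'n'collar family that pairs with small Maf proteins and activates antioxidant response elements in the promoters and enhancers of detoxification and redox genes. KEAP1 holds NRF2 in the cytoplasm and hands it to a CUL3 ubiquitin ligase for destruction, until oxidants or electrophiles modify KEAP1 and NRF2 accumulates, so NRF2 is largely controlled as a protein and not as an mRNA. BACH1 pairs with the same small Maf proteins and represses many of the same sites, and heme removes it from DNA. In the erythroid lineage the related factor NF-E2, a dimer of NFE2 and a small Maf, acts on globin and other maturation genes through similar sites. KEAP1 and NRF2 protein, their modification and their binding to DNA were not measured here.

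The promoters of the 3 genes that were higher with TMG in E2-treated cells are shown because these genes carry the main difference reported below. Each line gives the bases before the gene, 5′ to 3′ on the gene's strand, from 250-base windows before the annotated starts in RefSeq (GRCm38.p6). The Srxn1 window lies at chr2:152105274-152105523 (plus strand), Gclm at chr3:122245307-122245486 (plus strand) and Nqo1 at chr8:107403206-107403455 (minus strand). For Gclm the window ends before a start at 122245557, while the gene's first annotated base is 122245487, and the 70 bases between them are left out, which leaves 180 bases. Capitals mark matches on either strand to 3 sets of letters: TGACNNNGC, the core of the antioxidant response element, TGANTCA, the core shared with AP-1 sites, and TGANTCAGC, which contains the second and is the form bound by cap'n'collar and small Maf dimers.
Srxn1: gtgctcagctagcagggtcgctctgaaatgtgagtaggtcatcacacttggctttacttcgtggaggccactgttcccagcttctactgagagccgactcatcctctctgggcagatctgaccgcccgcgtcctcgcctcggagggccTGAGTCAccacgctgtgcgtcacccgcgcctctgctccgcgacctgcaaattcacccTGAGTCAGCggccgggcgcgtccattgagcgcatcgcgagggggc
Gclm: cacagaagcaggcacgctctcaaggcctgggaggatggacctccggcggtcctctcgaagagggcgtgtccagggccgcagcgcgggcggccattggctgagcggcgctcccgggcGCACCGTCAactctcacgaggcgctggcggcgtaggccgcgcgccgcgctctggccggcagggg
Nqo1: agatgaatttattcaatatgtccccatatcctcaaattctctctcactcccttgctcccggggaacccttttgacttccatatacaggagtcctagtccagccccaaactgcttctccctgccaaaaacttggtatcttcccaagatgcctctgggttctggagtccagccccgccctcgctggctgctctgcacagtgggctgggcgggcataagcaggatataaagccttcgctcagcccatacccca
In Srxn1 the letters TGANTCA matched 102 to 96 and again 45 to 39 bases before the start, and the second match extended to TGANTCAGC, from 45 to 37 bases before it. In Gclm, TGACNNNGC matched on the other strand, 64 to 56 bases before the gene's first annotated base and 134 to 126 before the start at 122245557. Nqo1 held none of these letters in this window. Promoter windows were matched for 8 of the 10 genes, 10 windows in all because Txnrd1 has 3 annotated starts, and Hmox1 and Gclc had no entry. TGACNNNGC was in 3 of the 10 windows (Nfe2l2, Gclm and 1 of Txnrd1) and in 10.2% of 32851 promoter windows of the same length. TGANTCA was in 6.75% of all windows and TGANTCAGC in 1.02%, and Srxn1 was the only gene of the 8 with either. The erythroid letters GATAAG were in 6.55% of all windows and in 0 of these 10. A match is a description of the letters and not of a bound site.

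The libraries held 17589400 to 23178700 expected counts each. The labels give the cell type as embryonic stem cell, but 0 of 6 embryonic stem cell markers passed the filter, Pou5f1, Sox2, Zfp42 and Dppa5a were at 0 in all libraries, and the highest value was 0.281 CPM, for Nanog. All 6 erythroid markers passed, with a summed level of 1183 to 1277 CPM in the 6 libraries without E2 and 6351 to 6856 CPM in the 6 with it. Mast cell and basophil markers passed for 3 of 6 genes and moved the other way, from sums of 76.8 to 100.3 CPM without E2 to 0.280 to 0.910 CPM with it, while Mcpt8, Prss34 and Tpsb2 stayed at 0. Their part in the E2 differences below was not tested. None of the 6 megakaryocyte markers and none of the 6 macrophage and granulocyte markers passed, and 1 of 6 lymphoid markers (Ptprcap) did. In bulk RNA, fewer cells of a type and less RNA per cell cannot be told apart. The labels do not say whether the 3 libraries of a group are separate cultures, and the p-values therefore measure how much the libraries vary, a variation that may be technical. The 3 TMG_E2 libraries differed among themselves the most (chi-square per degree of freedom 8.66 to 13.15, against 2.41 to 4.17 in the other groups). Mgea5, which encodes OGA, was at 219 to 230 CPM in Ctrl and 280 to 294 CPM with TMG, and at 317 to 338 CPM in E2 and 431 to 443 CPM in TMG_E2. It rose with TMG by 0.36 ± 0.04 on the log2 scale without E2 (adjusted p = 1.73e-05) and by 0.41 ± 0.03 with it (adjusted p = 8.05e-06). Ogt, which encodes the enzyme that adds the sugar, differed by 0.08 ± 0.04 (adjusted p = 0.337) and 0.13 ± 0.04 (adjusted p = 0.0604).

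**Figure D1:**
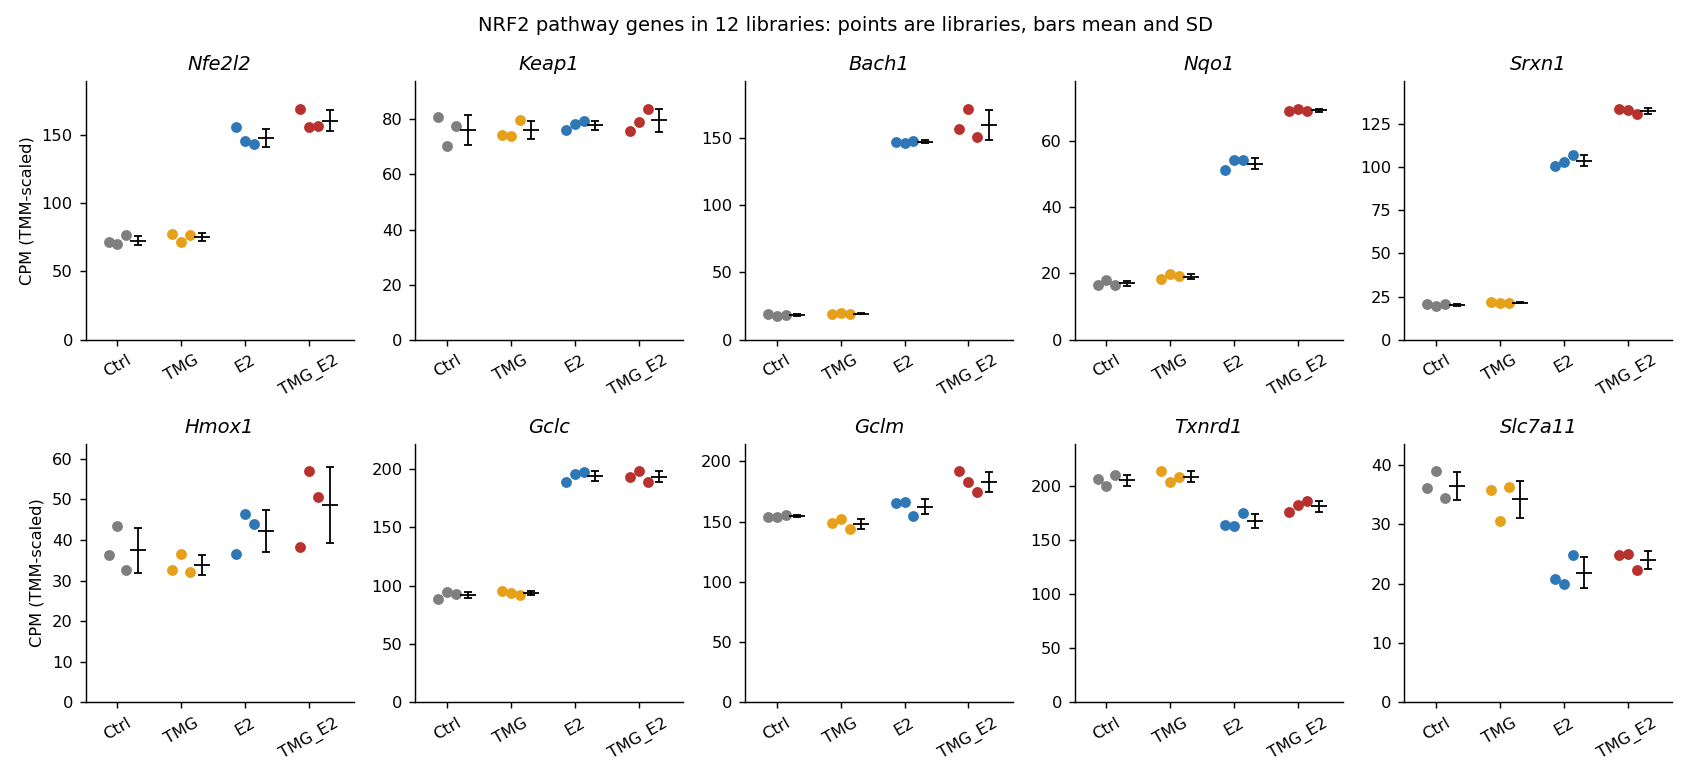
TMM-scaled CPM of the 10 NRF2 pathway genes in each of the 12 libraries, by group, on linear axes from 0; points are libraries and bars are the mean and SD of 3 libraries. Bach1, Srxn1, Nqo1, Nfe2l2 and Gclc are higher in every library with E2 than in any without it, Txnrd1 and Slc7a11 are lower, and Keap1 stays between 70.2 and 83.8 CPM. The share of all genes separated in this way was not computed, and 82.7% of all genes were called in each E2 comparison.

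With TMG in E2-treated cells, 3 of the 10 genes rose (Nqo1, Srxn1 and Gclm) and none fell. All 3 encode proteins of the defence against oxidants and electrophiles. The other 7 were not called: the targets Hmox1, Gclc, Txnrd1 and Slc7a11 and the regulators Nfe2l2, Keap1 and Bach1. Over all genes tested 12.8% were called in this comparison, 5.61% as higher and 7.14% as lower. The median log2 fold change of the 10 genes was 0.13, against 0.00039 over all genes. Fits used edgeR's quasi-likelihood test on all 12 libraries, called means a Benjamini-Hochberg adjusted p under 0.05 over all 8273 genes, and errors of log2 fold changes are standard errors. Without E2, TMG moved 0 of the 10 past the threshold, where 5.15% of all genes were called (3.01% higher and 2.14% lower). At an unadjusted p under 0.05 it was 1 gene (Nqo1), beside 1564 of all 8273 genes. DESeq2 also called 0, and the median log2 fold change was 0.03. The E2 comparisons called most genes tested. Without TMG, 7 of the 10 genes were called (5 higher, 2 lower) beside 82.7% of all genes (41.5% higher and 41.2% lower). With TMG, 9 of the 10 were called (7 higher, 2 lower), also beside 82.7% (40.9% higher and 41.8% lower). A share of 7 or 9 in 10 is near that background and is not read as a property of these genes. The share of all genes whose groups did not overlap was not computed. Separations of libraries given below are therefore also not read as a property of these genes. In 3 of these comparisons every correlation between the deviations of same-numbered libraries passed 0.1. Differently numbered libraries were not compared, so pairing was not shown. With the replicate number as a block the count in TMG_E2 against E2 was 6, adding Nfe2l2, Bach1 and Txnrd1. That fit called 1454 of all 8273 genes (673 higher and 781 lower).

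Nfe2l2 (chromosome 2, 75675513 to 75704663, minus strand), which encodes NRF2 itself, was at 71.8, 69.7 and 76.4 CPM in Ctrl and 77.5, 71.7 and 76.4 CPM in TMG. It was at 155, 145 and 143 CPM in E2 and 169, 156 and 157 CPM in TMG_E2. All 6 libraries with E2 were above all 6 without it. It rose with E2 by 1.03 ± 0.05 on the log2 scale (adjusted p = 1.83e-12) and its change with E2 under TMG is given below. Among the E2-treated cells every TMG_E2 library was above every E2 library in CPM. In TPM these groups overlapped, at 87.72 to 96.19 in E2 and 89.15 to 104.14 in TMG_E2. The mean log2 difference was 0.12 ± 0.05, which did not pass (adjusted p = 0.105) and passed with the replicate block (adjusted p = 0.0438).

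Keap1 (chromosome 9, 21229730 to 21239332, minus strand), the NRF2 adaptor, was the flattest of the 10 genes in CPM. It was at 80.7, 70.2 and 77.6 CPM in Ctrl, 74.3, 73.9 and 79.7 CPM in TMG, 76.1, 78.1 and 79.3 CPM in E2, and 75.8, 79.1 and 83.8 CPM in TMG_E2. The 4 groups overlapped in CPM. In TPM every library with E2 was slightly below every library without it. The ranges were 35.87 to 40.66 TPM in Ctrl, 36.75 to 39.01 in TMG, 34.44 to 35.85 in E2 and 33.28 to 34.76 in TMG_E2. None of the 5 comparisons called it, with log2 differences of 0.03 ± 0.05 for E2 (adjusted p = 0.586), 0.07 for E2 under TMG (adjusted p = 0.257), -0.0048 for TMG (adjusted p = 0.979) and 0.03 ± 0.05 for TMG in E2-treated cells (adjusted p = 0.772). Its expected counts were not whole numbers in any of the 12 libraries, so some of its reads were shared with other genes, and it overlaps an antisense gene.

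Bach1 (chromosome 16, 87698954 to 87733346, plus strand), the heme-regulated repressor, had the largest E2 change of the 10. It was at 18.9, 17.9 and 18.5 CPM in Ctrl and 19.0, 19.7 and 19.2 CPM in TMG, and at 147, 146 and 148 CPM in E2 and 156, 172 and 151 CPM in TMG_E2. Every library with E2 was far above every library without it. It rose with E2 7.97-fold (log2 2.99 ± 0.05, adjusted p = 3.14e-18), a change exceeded in size by 1.64% of all genes tested. With TMG among E2-treated cells all 3 libraries were higher in CPM, by 0.12 ± 0.04 on the log2 scale (adjusted p = 0.0779; 0.0488 with the replicate block, and 0.0195 without TMG_E2 replicate 3). In TPM these groups overlapped, at 37.01 to 38.42 in E2 and 35.18 to 43.47 in TMG_E2.

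Nqo1 and Srxn1 are antioxidant response enzymes: NQO1 reduces quinones with both electrons at once, and SRXN1 restores over-oxidized peroxiredoxins. Nqo1 (chromosome 8, 107388225 to 107403205, minus strand) was at 16.5, 17.9 and 16.5 CPM in Ctrl and 18.4, 19.7 and 19.1 CPM in TMG. With E2 it was at 51.2, 54.1 and 54.1 CPM, and with both agents at 68.9, 69.7 and 68.9 CPM. The 4 groups did not overlap: the order was Ctrl, TMG, E2 and TMG_E2. Nqo1 rose with E2 3.13-fold (log2 1.65 ± 0.05, adjusted p = 4.63e-15). With TMG in E2-treated cells it rose 1.30-fold (log2 0.38 ± 0.04, adjusted p = 6.00e-05), a change exceeded in size by 2.41% of all genes. Without E2 the TMG difference was 0.17 ± 0.06 (adjusted p = 0.105, and 0.0788 to 0.328 over the other settings tried).

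Srxn1 (chromosome 2, 152105524 to 152111376, plus strand), whose promoter carries the TGANTCAGC letters shown above, was at 20.4, 19.4 and 20.5 CPM in Ctrl and 21.6, 21.5 and 21.2 CPM in TMG. In E2 it was at 101, 103 and 107 CPM, and in TMG_E2 at 134, 133 and 131 CPM. These 4 groups did not overlap in CPM either, in the same order. In TPM Ctrl (11.44 to 12.23) and TMG (12.15 to 12.59) overlapped. Srxn1 rose with E2 5.15-fold (log2 2.36 ± 0.04, adjusted p = 5.39e-18). With TMG in E2-treated cells it rose 1.28-fold (log2 0.36 ± 0.04, adjusted p = 2.21e-05), and without E2 the TMG difference was 0.09 ± 0.05 (adjusted p = 0.383). For both Nqo1 and Srxn1 the TMG rise in E2-treated cells was called in each of 13 other settings, at log2 0.36 to 0.40 and 0.34 to 0.38, and the highest adjusted p was 0.00115.

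Gclc and Gclm encode the catalytic and modifier subunits of glutamate-cysteine ligase, the rate-limiting enzyme of glutathione synthesis, of which Gclc was called with E2 and Gclm with TMG in E2-treated cells. Gclc (chromosome 9, 77754535 to 77794489, plus strand) was at 88.8, 94.5 and 92.7 CPM in Ctrl and 95.4, 94.1 and 92.3 CPM in TMG, then at 189, 196 and 198 CPM in E2 and 193, 198 and 188 CPM in TMG_E2. It was high in every E2-treated library, and TMG groups overlapped with their counterparts. Gclc rose with E2 by 1.08 ± 0.04 on the log2 scale (adjusted p = 1.97e-14), and the TMG difference in E2-treated cells was -0.0074 ± 0.04 (adjusted p = 0.919).

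Gclm (chromosome 3, 122245487 to 122267215, plus strand) was at 154, 154 and 156 CPM in Ctrl, 149, 152 and 144 CPM in TMG, 165, 167 and 155 CPM in E2, and 192, 183 and 175 CPM in TMG_E2. In CPM the TMG_E2 libraries were above all others, while E2 overlapped Ctrl. In TPM the TMG_E2 libraries, at 117.96 to 139.77, overlapped both Ctrl (126.39 to 128.91) and E2 (111.96 to 120.51). Gclm overlaps Gm17494 on the other strand and the pseudogene Gm6061 on its own, and its expected counts were whole numbers in all 12 libraries. Its E2 difference without TMG was 0.07 ± 0.04 (adjusted p = 0.113). It passed in a fit of only the 2 groups (0.0484) and without E2 replicate 3 (0.0308), and ranged from -0.027 to 0.11 over the other settings. With TMG in E2-treated cells Gclm rose by 0.17 ± 0.04 on the log2 scale (adjusted p = 0.00967), but the adjusted p was 0.0650 when E2 replicate 3 was left out and 0.0534 in a fit of only the 2 groups, both above the threshold of 0.05. On the TPM scale, which is scaled for depth and transcript length, the Gclc to Gclm ratio was 0.347 ± 0.011 in Ctrl, 0.369 ± 0.0076 in TMG, 0.698 ± 0.040 in E2 and 0.616 ± 0.025 in TMG_E2 (mean ± SD, n = 3).

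Txnrd1 and Slc7a11 were the 2 genes lower with E2. Txnrd1 (chromosome 10, 82833951 to 82897724, plus strand), the cytosolic thioredoxin reductase, was at 206, 199 and 209 CPM in Ctrl, 213, 203 and 208 CPM in TMG, 164, 163 and 175 CPM in E2, and 176, 182 and 186 CPM in TMG_E2. All E2-treated libraries were lower than all others. Txnrd1 overlaps other annotated genes, of which Eid3, on the same strand, had at most 26 counts in a library. Txnrd1 fell by 0.29 ± 0.04 on the log2 scale with E2 (adjusted p = 1.52e-06). With TMG in E2-treated cells it was 0.11 ± 0.04 higher (adjusted p = 0.0598), which passed under DESeq2 (adjusted p = 0.0376), with the replicate block (0.0292) and in 3 other settings.

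Slc7a11 (chromosome 3, 50364936 to 50499087, minus strand), the cystine importer that feeds glutathione synthesis, was at 36.0, 38.9 and 34.3 CPM in Ctrl, 35.7, 30.5 and 36.2 CPM in TMG, 20.8, 19.9 and 24.8 CPM in E2, and 24.8, 24.9 and 22.2 CPM in TMG_E2. The 6 E2-treated libraries were lower than the 6 others. It fell by 0.74 ± 0.08 on the log2 scale with E2 (adjusted p = 3.19e-07). TMG in E2-treated cells gave 0.14 ± 0.09 (adjusted p = 0.337), with overlapping groups. Like Keap1 it had expected counts that were not whole in all 12 libraries, and it overlaps other annotated genes.

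Hmox1 (chromosome 8, 75093618 to 75100593, plus strand), heme oxygenase 1, a classic target of both NRF2 and BACH1, had the largest standard errors of the 10. It was at 36.2, 43.5 and 32.7 CPM in Ctrl, 32.7, 36.6 and 32.1 CPM in TMG, 36.5, 46.4 and 44.0 CPM in E2, and 38.4, 56.9 and 50.6 CPM in TMG_E2. Ctrl, E2 and TMG_E2 overlapped, and all TMG_E2 libraries were above all TMG libraries in CPM. In TPM TMG_E2 (37.94 to 54.98) overlapped TMG (34.58 to 39.54). The E2 difference was 0.18 ± 0.13 (adjusted p = 0.191; 0.0447 with the replicate block, 0.0474 with no filter on low counts, and 0.0427 without Ctrl replicate 2). Under TMG, E2 raised Hmox1 by 0.52 ± 0.13 (adjusted p = 0.00119). TMG in E2-treated cells gave 0.19 ± 0.12 (adjusted p = 0.343), and 0.35 without TMG_E2 replicate 1 (adjusted p = 0.0369).

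**Figure D2:**
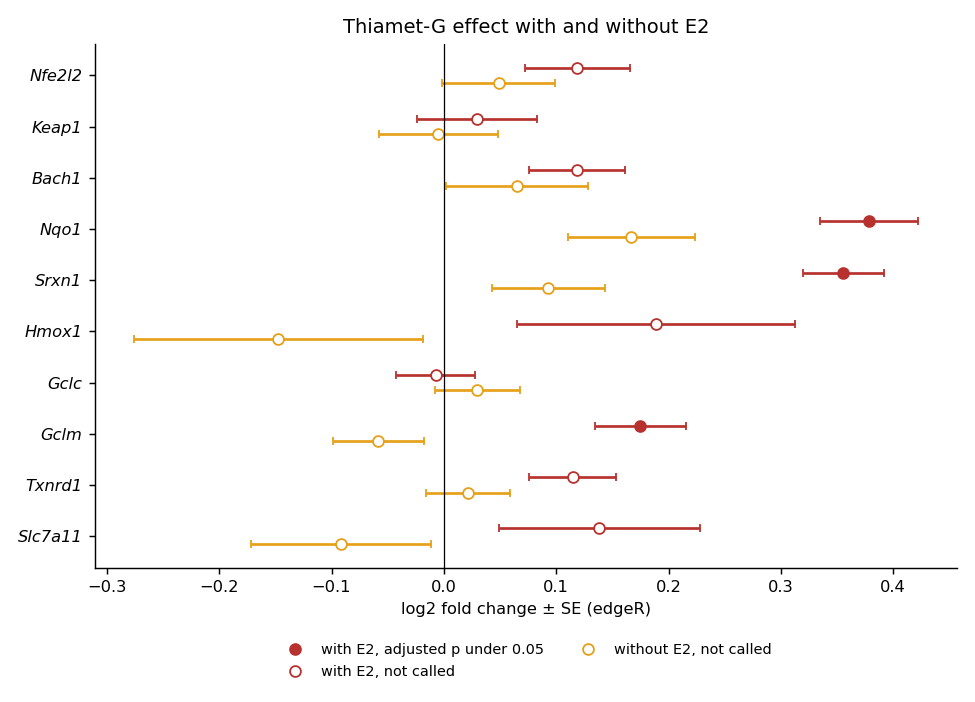
Log2 fold change ± SE of TMG for each gene, with E2 (TMG_E2 against E2) and without it (TMG against Ctrl), 3 libraries a group; filled points have an adjusted p under 0.05. With E2, Nqo1 (0.38), Srxn1 (0.36) and Gclm (0.17) are called, and without E2 none is.

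Whether the TMG difference itself depended on E2 was tested as an interaction, which called 0 of the 10 genes beside 0.931% of all genes tested (0.266% higher and 0.665% lower). At an unadjusted p under 0.05 there were 3 (Srxn1, Gclm and Nqo1), beside 914 of all 8273 genes. DESeq2 called 1 (Gclm, adjusted p = 0.0169), among 99 genes in all. The interaction was 0.26 ± 0.06 on the log2 scale for Srxn1 (adjusted p = 0.0599), 0.23 ± 0.06 for Gclm (adjusted p = 0.0698) and 0.21 ± 0.07 for Nqo1 (adjusted p = 0.218). With the replicate block Srxn1 (adjusted p = 0.0429) and Gclm (adjusted p = 0.0202) passed, as they did without TMG_E2 replicate 3 (0.0393 and 0.0246). Hence a call with E2 and none without it does not by itself show that the TMG response of these genes differed between the settings. For Gclm the 2 TMG differences had opposite signs, -0.06 ± 0.04 without E2 and 0.17 ± 0.04 with it.

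**Figure D3:**
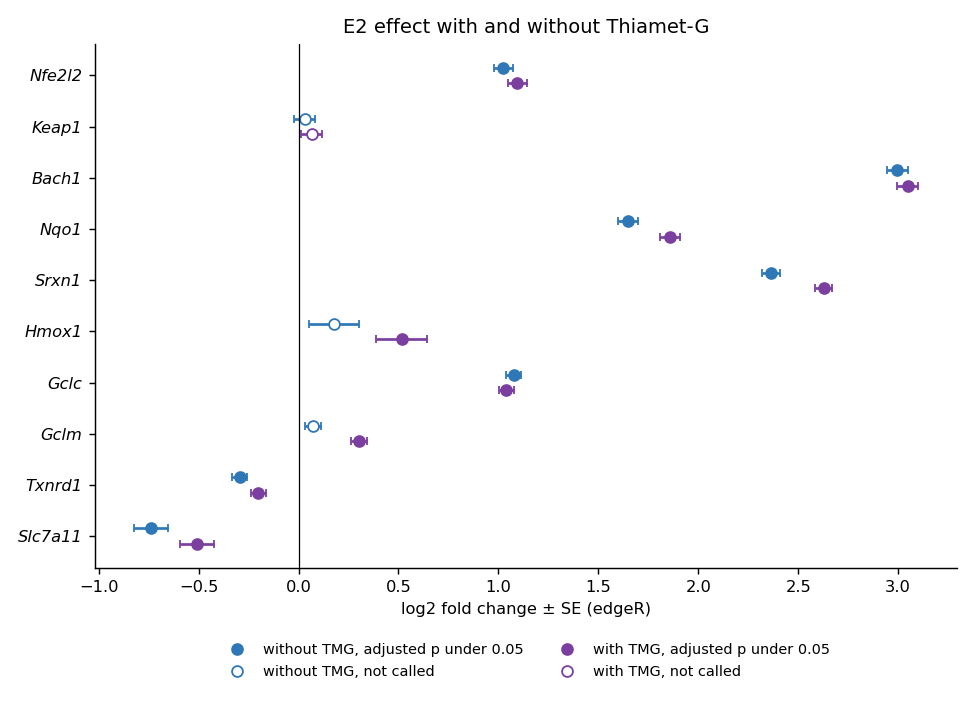
Log2 fold change ± SE of E2 for each gene, without TMG (E2 against Ctrl) and with it (TMG_E2 against TMG), 3 libraries a group; filled points have an adjusted p under 0.05. Bach1 is highest at 2.99 and 3.05, Slc7a11 lowest at -0.74 and -0.51, and Keap1 is not called in either.

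The E2 changes under TMG, which share no library with those without it, were 3.05 for Bach1, 2.63 for Srxn1, 1.86 for Nqo1, 1.095 for Nfe2l2 and 1.04 for Gclc on the log2 scale. Txnrd1 fell by 0.20 (adjusted p = 0.000112) and Slc7a11 by 0.51 (adjusted p = 2.96e-05) in that setting. Gclm, not called without TMG in the main fit, rose by 0.30 ± 0.04 (adjusted p = 2.08e-06).

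Compared per length in TPM, the order of the 10 genes changed with E2. In Ctrl, Gclm was highest (127.8 ± 1.3 TPM, mean ± SD, n = 3), then Txnrd1 (101 ± 3.7), Nfe2l2 (49.9 ± 2.6) and Gclc (44.3 ± 1.1). Hmox1 (42.0 ± 6.0), next in the order, overlapped Gclc, and Keap1 (38.8 ± 2.5) overlapped Hmox1. Nqo1 (19.4 ± 0.81), Srxn1 (11.95 ± 0.44), Slc7a11 (6.57 ± 0.35) and Bach1 (5.27 ± 0.16) were lowest and did not overlap. In E2, Gclm (117 ± 4.7) still led, followed by Nfe2l2 (90.6 ± 4.9), Gclc (81.8 ± 1.4) and Txnrd1 (72.2 ± 2.6). Srxn1 (53.8 ± 1.5) and Nqo1 (53.0 ± 1.3) overlapped, as did Hmox1 (41.4 ± 4.8) and Bach1 (37.7 ± 0.71), and Keap1 (35.1 ± 0.71) and Slc7a11 (3.66 ± 0.40) were at the end. The TPM ratio of Bach1 to Nfe2l2 was 0.106 ± 0.0024 in Ctrl, 0.106 ± 0.0033 in TMG, 0.417 ± 0.024 in E2 and 0.414 ± 0.045 in TMG_E2, while that of Keap1 to Nfe2l2 was 0.776, 0.750, 0.389 and 0.360. For both ratios the E2-treated libraries were apart from the others, while libraries with and without TMG overlapped.

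**Figure D4:**
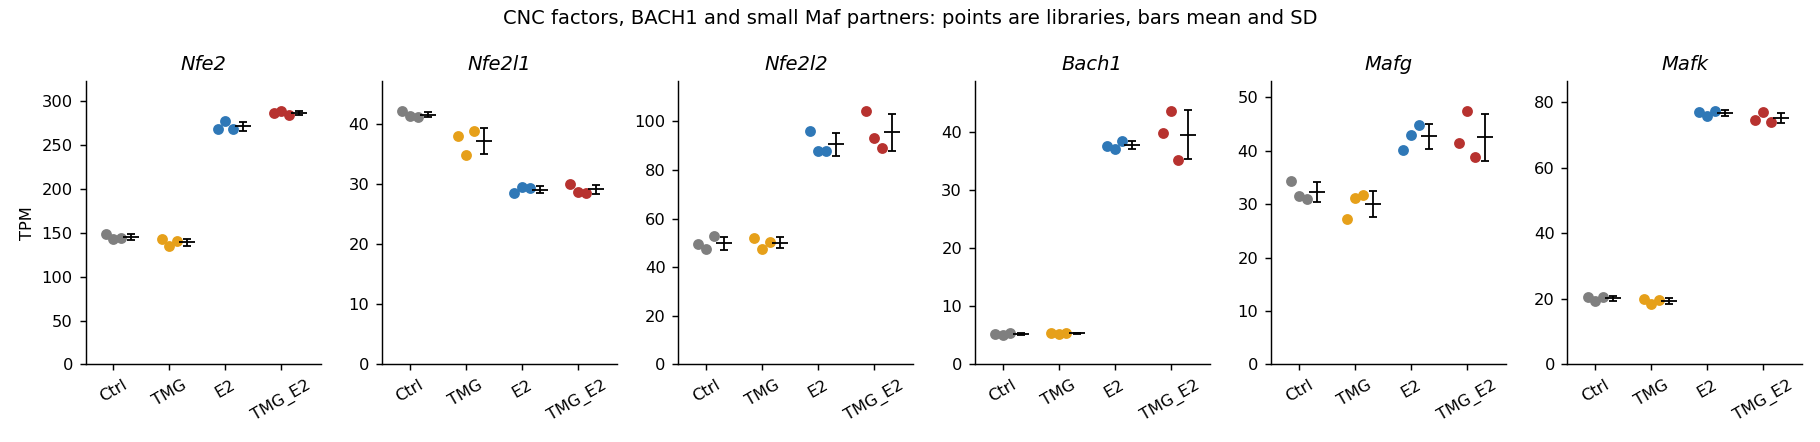
TPM of the cap'n'collar factors Nfe2, Nfe2l1 and Nfe2l2, of Bach1 and of the small Maf genes Mafg and Mafk in each of the 12 libraries, on linear axes from 0; points are libraries and bars the mean and SD of 3 libraries. All but Nfe2l1 are higher in every library with E2 than in any without it, and Nfe2 has the highest TPM. The share of all genes separated in this way was not computed.

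Of 7 partners and rivals of NRF2 at the same sites, 4 were expressed past the filter, and with E2 3 rose and 1 fell, where 82.7% of all genes were called. Mafk, a small Maf, rose by 2.12 ± 0.04 on the log2 scale, Nfe2, the hematopoietic cap'n'collar factor, by 1.08 ± 0.04, and Mafg by 0.60 ± 0.07, while Nfe2l1 fell by 0.29 ± 0.04. The Nfe2 to Nfe2l2 TPM ratio had group means between 2.79 (TMG) and 3.01 (TMG_E2). TMG in E2-treated cells called 0 of the 4, beside 12.8% of all genes. At an unadjusted p under 0.05 it was 1, beside 2306 of all 8273 genes. DESeq2 called 1 (Nfe2), among 993 genes in all. Nfe2 gave 0.11 (adjusted p = 0.0509; 0.0234 by DESeq2 and 0.0388 with the replicate block), Mafk 0.0060 and Mafg 0.03.

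The turnover of NRF2 protein was covered by 10 genes, all expressed. With E2, 8 rose and 1 fell, again near the 82.7% of all genes called. With scaling by library size alone it was 5 and 1, as Cul3, Fbxw11 (adjusted p = 0.324) and Syvn1 (adjusted p = 0.0967) lost their calls. The largest were Sqstm1, the autophagy adaptor p62 that competes with NRF2 for KEAP1, at 1.01 ± 0.05 on the log2 scale, and Ufd1l, at 0.62. Cul3, the scaffold of the KEAP1 ligase, rose by 0.14 ± 0.03 (0.04, adjusted p = 0.245, with library size alone). Under TMG in E2-treated cells Sqstm1 was the 1 of 10 called, beside 12.8% of all genes, at 302, 335 and 321 CPM in E2 and 340, 398 and 399 CPM in TMG_E2. The groups did not overlap, and the rise was 0.25 ± 0.05 (adjusted p = 0.00672). Cul3 gave 0.04.

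Beyond the 10 genes, 70 genes of the wider pathway were listed, of which 46 were expressed past the filter. Of the 24 others, 10 were at 0 in all 12 libraries, which allows up to 0.133 to 0.180 CPM at 3 counts, and the highest value was 3.18 CPM, for Gsta4. In TMG_E2 against E2, 12 of the 46 were called (10 higher, 2 lower), with a median log2 fold change of 0.06. Over all genes 12.8% were called there, 5.61% higher and 7.14% lower, with a median of 0.00039. Without E2, 3 were called, all higher, where 5.15% of all genes were. At an unadjusted p under 0.05 it was 16 of the 46, beside 1564 of all 8273 genes. With E2 alone 42 were called (30 higher, 12 lower, median 0.34) and with E2 under TMG also 42 (30 and 12, median 0.36). Over all genes 82.7% were called in each of these E2 comparisons, so counts of 42 in 46 are not read as a property of the pathway. Under TMG the E2 changes with the smallest p in each list were 2.14 for Mafk, 1.21 for Nfe2, 1.13 for Sqstm1, 0.65 for Ufd1l, -1.53 for Gstp1, 0.88 for Abcc1, 1.33 for Prdx6, -0.73 for Txn1, 1.096 for Taldo1, -0.77 for Pgd, 2.22 for Abcb6, 1.61 for Fech, 1.47 for Htatip2 and 1.296 for Esd on the log2 scale. The interaction called 0, beside 0.931% of all genes. At an unadjusted p under 0.05 it was 10 of the 46, beside 914 of all 8273 genes. DESeq2 called Taldo1 (adjusted p = 0.0138), among 99 genes in all.

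Among genes that supply NADPH, Idh1, cytosolic isocitrate dehydrogenase, was at 76.1, 73.7 and 75.2 CPM in E2 and 92.8, 86.3 and 95.7 CPM in TMG_E2. It rose by 0.29 ± 0.04 on the log2 scale with TMG in E2-treated cells (adjusted p = 0.000513). Taldo1, transaldolase of the pentose phosphate pathway, rose by 0.21 ± 0.04 (adjusted p = 0.00272). In the thioredoxin and peroxiredoxin list 1 of 6 was called, beside 12.8% of all genes. This was Prdx1, a peroxiredoxin that SRXN1 acts on, which rose by 0.21 ± 0.04 (adjusted p = 0.00317). With E2 alone Prdx6 (1.20) and Gpx1 (1.07) rose, Txn1 fell by 0.61, and Pgd fell by 0.87 beside a rise of Taldo1 by 0.88.

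In the glutathione list 5 of 17 genes were expressed. Gstp1, a glutathione transferase, was at 20.4, 18.6 and 19.2 CPM in E2 and 14.8, 16.6 and 17.1 CPM in TMG_E2, and fell by 0.27 on the log2 scale (adjusted p = 0.0173; 0.0760 without E2 replicate 1, 0.0882 without TMG_E2 replicate 1). Its expected counts were not whole in 7 of the 12 libraries. Abcc1, which exports glutathione conjugates, rose by 0.16 (adjusted p = 0.0283), and the call ended without E2 replicate 1 (0.0885), E2 replicate 3 (0.100), TMG_E2 replicate 1 (0.0532) or TMG_E2 replicate 2 (0.0811). With E2 alone Gstp1 fell by 1.39 and Gsr, glutathione reductase, by 0.82, while Abcc1 rose by 0.70.

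Of 8 iron and heme genes, all expressed, TMG in E2-treated cells raised the 2 ferritin chains. Over all genes, 5.61% were higher and 7.14% lower. Fth1 was at 1060, 1124 and 1113 CPM in E2 and 1177, 1366 and 1406 CPM in TMG_E2, a rise of 0.26 ± 0.05 on the log2 scale (adjusted p = 0.00495). Ftl1 rose by 0.29 ± 0.08 (adjusted p = 0.0236) with groups that overlapped, and the call ended without E2 replicate 1 (0.0993), TMG_E2 replicate 2 (0.0706) or TMG_E2 replicate 3 (0.0682). With E2 alone the chains moved apart, Fth1 falling by 0.90 and Ftl1 rising by 1.30, and Abcb6 (2.08) and Fech (1.68), of porphyrin transport and heme synthesis, had the smallest p-values of this list. The expected counts of both ferritin genes were whole numbers in all 12 libraries.

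Among detoxification and other targets, 7 of 16 were expressed, and TMG in E2-treated cells raised 3 and lowered 1 (over all genes, 5.61% were higher and 7.14% lower). Esd, a glutathione-dependent esterase, rose by 0.25 (adjusted p = 0.00107) and Htatip2 by 0.25 (adjusted p = 0.00152), and with E2 alone they rose by 1.18 and 1.44. Nqo2, a paralog of Nqo1, rose by 0.21 (adjusted p = 0.0381), a call that ended when any of E2 replicates 1 to 3 or TMG_E2 replicates 1 or 3 was left out (0.0552 to 0.124). Cbr1, a carbonyl reductase, fell by 0.26 (adjusted p = 0.00894). Without E2 the 3 called genes were Ftl1 (0.34, adjusted p = 0.0192), Htatip2 (0.22, adjusted p = 0.0149) and Idh1 (0.17, adjusted p = 0.0418). Idh1 lost its call without any 1 of the 6 libraries (0.0831 to 0.147), Ftl1 without any but TMG replicate 1 (0.0545 to 0.0874), and Htatip2 without Ctrl replicate 1, Ctrl replicate 3 or TMG replicate 2 (0.0574 to 0.0801).

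The genes whose pattern over the 12 libraries was nearest to each of the 10, by the root mean square distance of centred log2 CPM, are given as a description. Rfc2 (0.0404) and Ccna2 (0.0424) were nearest to Nfe2l2, against a median of 0.558 over all genes tested. Slc46a3 and Ctsb (both 0.0672, median 1.52) were nearest to Bach1, Taf1c (0.0322) and Shkbp1 (0.0372, median 0.235) to Keap1, and Arrdc3 (0.0728) and Atp6v1d (0.0856, median 0.899) to Nqo1. Crebrf (0.0957) and Sun2 (0.103, median 1.26) were nearest to Srxn1. For Gclc they were Ccdc134 and Chfr, for Gclm Rap1a and Cdc42se2, for Hmox1 Ero1l and Egln1, for Txnrd1 Dhx16 and Vac14, and for Slc7a11 Dffb and Zc3h12c. No other of the 10 genes was among these.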

How the data were processed

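Per the series' design text, the authors prepared stranded poly(A) libraries (TruSeq), sequenced them paired-end, and used FastQC 0.11.2, RSEM 1.2.22 (GRCm38/mm10), edgeR 3.14.0 (under R 3.2.2) with TMM scaling. Bowtie2 is named in the submitters' processing notes. The sources used here do not give the strand setting of the counting. The deposited tables hold RSEM expected counts, TPM and FPKM per gene, and the FPKM values were not used. Rounded expected counts were fitted in edgeR 4.0.16 (R 4.3.3, limma 3.58.1): TMM scaling, genes above 10 CPM in at least 2 libraries, 1 quasi-likelihood fit of the 4 group means over all 12 libraries, and Benjamini-Hochberg adjustment at 0.05. The filter and scaling follow the authors' stated method. CPM in the text is TMM-scaled, and TPM is the authors' deposited value. DESeq2 1.42.0, other scalings and filters, a replicate block, fits of only the groups compared and leaving out each library were alternatives. The fits were tested on simulated data. There, all groups shared the same mean and spread for each gene, apart from the genes changed in 1 group. The E2 effect and the wider spread of the TMG_E2 libraries were not simulated. The shares that follow therefore hold for that simpler setting. Changes of 1.2-fold were recovered for 55.2% of the changed genes in TMG_E2 against E2, 71.6% in TMG against Ctrl and 16.4% in the interaction. At 1.5-fold these shares were 100%, 98.5% and 91.0%. Of the calls, 6.59%, 3.74% and 3.55% were genes not changed in the simulation. The main fit had no block, so none of its tests is paired. Same-numbered libraries were taken to deviate together where every correlation of their deviations passed 0.1, without a comparison with differently numbered libraries. This held for TMG_E2 against E2 (0.182 to 0.285), E2 against Ctrl (0.108 to 0.278) and TMG_E2 against TMG (0.149 to 0.525). It did not hold for TMG against Ctrl (0.0295 to 0.188). The replicate block was applied only as an alternative, in every comparison. Named genes are the 10 members, Mgea5 and Ogt, 5 regulators (Nfe2, Mafk, Mafg, Cul3, Sqstm1), the 2 called genes with the smallest p in each wider list and comparison, and the 2 nearest patterns of each member; other called genes were named after their values were seen. The members and lists were chosen with earlier results of these data known.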

Additional observations from a re-analysis of the deposited data

How the results depend on the processing

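For the 10 genes, 678 of 700 values under other settings kept their side of the threshold, 20 passed it only there and 2 lost it. None changed direction where either fit called it. Some values called in neither fit did change sign, such as Gclm (down to -0.027) and Keap1 (down to -0.067) in E2 against Ctrl. The block with the replicate number gave 6 of the 10 genes in TMG_E2 against E2 (main 3) and 2 in the interaction (main 0). Over all genes it gave 1454 in TMG_E2 against E2, 675 in TMG against Ctrl and 171 in the interaction (main counts 1055, 426 and 77). It added no other member call than those named beside the results. With no filter the interaction called 178 genes and 1 of the 10, with edgeR's own filter (filterByExpr) 48 genes, and DESeq2 called 1 of the 10. Fits of only the groups compared called 539 genes in TMG_E2 against E2 (main 1055) and 768 in TMG against Ctrl. Leaving out 1 library gave 3 to 5 of the 10 genes and 656 to 1160 genes in TMG_E2 against E2, 196 to 257 genes in TMG against Ctrl, and 0 to 2 of the 10 and 18 to 161 genes in the interaction. Scaling by library size alone changed the split of higher and lower genes from 464 and 591 to 348 and 764 in TMG_E2 against E2, from 249 and 177 to 179 and 232 in TMG against Ctrl, from 3432 and 3406 to 2871 and 3952 in E2 against Ctrl, and from 3386 and 3455 to 2893 and 4005 in TMG_E2 against TMG. It also turned Prdx1 in E2 against Ctrl from 0.01 (adjusted p = 0.823) to -0.088 (adjusted p = 0.0408). The causes of these changes were not tested. With 3 libraries a group, some differences near 0.1 on the log2 scale lay close to the threshold in TMG_E2 against E2. Larger ones were not called for Slc7a11 and Hmox1 in that comparison, for Nqo1 in TMG against Ctrl, or for Srxn1, Gclm and Nqo1 in the interaction.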

Other observations

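Hmox1 was the 1 gene of the 10 for which the library with the same number was highest in all 4 groups. Replicate 2 was highest at 43.5 CPM in Ctrl, 36.6 in TMG, 46.4 in E2 and 56.9 in TMG_E2.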
